A study of Mus musculus with 8 samples.

Results

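Complex I, or NADH:ubiquinone oxidoreductase, is the entry point of the respiratory chain, and its genes were followed here by RNA-sequencing in BMDMs, macrophages grown from bone marrow, that differ in the floxed Klf2 allele. Members were all genes of the deposited table whose mouse symbol starts with Ndufa, Ndufb, Ndufc, Ndufs, Ndufv or Ndufaf, without predicted or processed pseudogenes. There were 46 such genes among the 23761 listed, of which 38 carry subunit names and 8 are assembly factors (Ndufaf1 to Ndufaf8). Ndufaf8 stands in the table under its older name 1810043H04Rik. The processed pseudogenes Ndufa11b, Ndufb4c, Ndufs6b and Ndufab1-ps were left out. Of the subunits encoded by mitochondrial DNA, mt-Nd6 had a row, with 0 FPKM in every LysM library and at most 0.102 FPKM in a K2KO library. The others had no row under their symbols, so no level can be given for them.

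Libraries came from BMDMs of 3 month old mice, with 4 LysM libraries (LysM Cre/Cre) and 4 K2KO libraries (LysM Cre/Cre KLF2 flox/flox), all marked as vehicle. Both groups therefore carry Cre at the lysozyme M locus (Lyz2), and Cre is made in the myeloid lineage as that gene is switched on, so that the extent of deletion in a culture depends on it. Marrow had been grown in medium conditioned by L929 cells, a source of macrophage colony-stimulating factor. Levels are FPKM, fragments scaled to transcript length and to library size, and libraries are named by genotype and by the number that ends their column (LysM0 to LysM3, K2KO0 to K2KO3), since the columns could be matched to a genotype but not to a single mouse. Read counts are not given, so the depth of each library is unknown. The steps between low FPKM gave a depth relative to LysM0. It was 1, 0.979, 1.08 and 1.22 in LysM0 to LysM3 and 1.40, 1.46, 0.940 and 0.979 in K2KO0 to K2KO3. Summed FPKM ran from 448235 in K2KO0 to 551608 in LysM3.

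Klf2 itself (chr8:72319033-72321656, mm10, plus strand) did not separate the groups. Its level was 44.1, 52.9, 64.7 and 72.8 FPKM in LysM0 to LysM3 and 45.5, 41.6, 59.2 and 59.3 FPKM in K2KO0 to K2KO3. The groups overlapped, with means of 58.7 ± 12.7 FPKM (SD, n = 4) and 51.4 ± 9.22 FPKM (SD, n = 4). The log2 fold change was -0.18 ± 0.17 (SE, adjusted p = 0.460 by limma), and an exact two-sided permutation test over the 35 splits gave p = 0.429. Which exons of Klf2 the reads cover cannot be read from FPKM per gene. Directions below are therefore those of the libraries labelled K2KO.

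Complex I takes electrons from NADH in the matrix, passes them along a chain of iron-sulfur clusters to ubiquinone, and pumps protons across the inner membrane. Its peripheral arm holds the NADH-oxidising end, with a flavin and several clusters, and the ubiquinone-reducing end near the membrane, while its membrane arm holds the proton pumps, which are encoded by mitochondrial DNA and surrounded by nuclear-encoded accessory subunits. Assembly factors help to build the arms and are not part of the finished enzyme. In macrophages the enzyme is known both for respiration and as a source of reactive oxygen species, and mitochondrial metabolism is remodelled when these cells are activated.

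Of the tested genes with subunit names, 17 of 37 were called lower in the libraries labelled K2KO. After each library was corrected for GC content and transcript length, 6 of these were also called. Among the 8 assembly factors 1 was called lower. The 37 include Ndufa4, which was not called and is now placed in cytochrome c oxidase. FPKM were compared as log2(FPKM + 0.1) for the 10920 genes with a mean of at least 1 FPKM, and a gene was called when its adjusted p was under 0.05 and its absolute log2 fold change over 0.26. Of 38 subunit genes 37 could be tested, and none was called higher. Among all tested genes, 8.61% were called lower, 9.84% higher and 18.4% in either direction. At an unadjusted p under 0.05 there were 27 subunits, beside 37.8% of all tested genes. The log2 fold change was below 0 for 35 of the 37 subunits, against 48.2% of all tested genes. Its median over the subunits was -0.28, a change of -17.7%, beside a median of 0.01 over all tested genes, and after the correction it was -0.09. For 12 subunits every K2KO library lay below every LysM library, which was the case for 10.2% of all tested genes, while 12.9% lay above and no subunit did. All 8 assembly factors could be tested, none was called higher, and their median log2 fold change was 0.04. The difference between subunits and assembly factors was not tested. In bulk RNA, fewer cells of a type and less RNA per cell cannot be told apart.

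**Figure D1:**
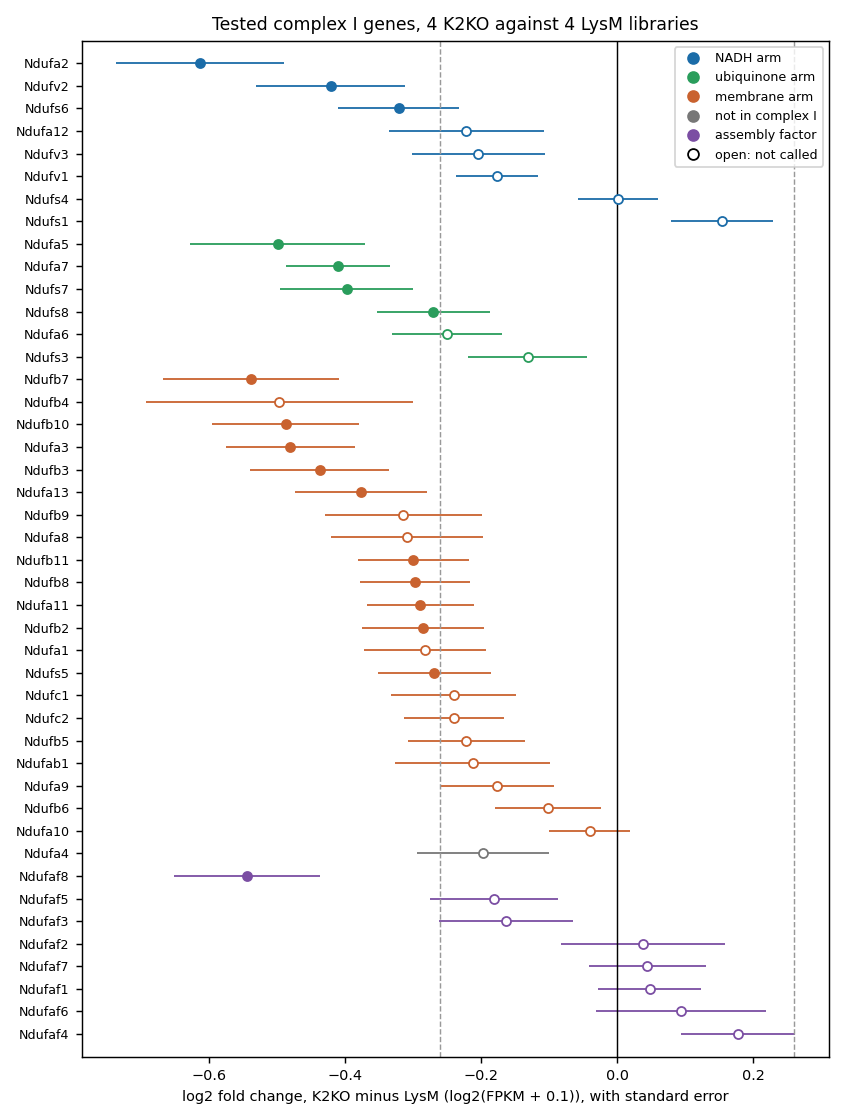
Log2 fold change (K2KO minus LysM, on the log2(FPKM + 0.1) scale) of 44 of the 45 tested complex I genes, ordered within the NADH arm, ubiquinone arm, membrane arm, Ndufa4 and assembly factors; lines are standard errors, filled points are called, and dashed lines mark 0.26 in each direction. The 17 called subunits lie between -0.61 and -0.27, and 7 of the 8 assembly factors lie between -0.18 and 0.18.

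Leaving out single libraries changed the number of called subunits widely. It was 25 without K2KO3, where 12.6% of all tested genes were called lower, and 2 without LysM3, where 2.24% were. It was 18 without LysM0 (11% of all genes), 3 without LysM1 (3.16%), 6 without LysM2 (4.41%), 3 without K2KO0 (3.4%), 3 without K2KO1 (3.57%) and 4 without K2KO2 (3.12%). Ndufa3, Ndufa7 and Ndufaf8 were called in all 8 of these fits, Ndufa2 in 7, and Ndufb10 in 4. The other 13 called subunits were called in fewer, namely Ndufa13 and Ndufb11 in 3, Ndufa5, Ndufa11, Ndufb3, Ndufb7, Ndufb8, Ndufs6, Ndufs7 and Ndufv2 in 2, and Ndufb2, Ndufs5 and Ndufs8 in 1. The median over the subunits ran from -0.35 to -0.23 in the same fits.

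The NADH-oxidising end was represented by 8 genes, of which 3 were called lower and 5 were not called, with a median log2 fold change of -0.21. Ndufa2, an accessory subunit with a thioredoxin-like fold, had the largest change of all members. It was at 359, 435, 435 and 439 FPKM in LysM0 to LysM3 and at 232, 249, 276 and 341 FPKM in K2KO0 to K2KO3. The groups did not overlap, with LysM0 well below the other LysM libraries and K2KO3 closest to them. The log2 fold change was -0.61 ± 0.12 (SE, adjusted p = 0.0151), and the mean in K2KO was 0.659 of that in LysM.

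Ndufv2, a core subunit that carries an iron-sulfur cluster, was at 57.5, 71.9, 76.3 and 67.2 FPKM in LysM0 to LysM3 and at 43.5, 48.9, 54.1 and 57.2 FPKM in K2KO0 to K2KO3. LysM0 and K2KO3 differed by less than 1 FPKM, and the groups did not overlap. The log2 fold change was -0.42 ± 0.11 (adjusted p = 0.0300). Ndufs6, a zinc-binding accessory subunit, was called too, at 115 ± 6.88 and 92.1 ± 10.9 FPKM (SD, n = 4 each, log2 fold change -0.32).

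The other core subunits of the NADH end were not called. Ndufv1, which binds NADH and the flavin, was at 42.7, 42.6, 45.5 and 42.3 FPKM in LysM0 to LysM3 and at 35.7, 38.3, 41.2 and 38.2 FPKM in K2KO0 to K2KO3. These groups did not overlap either, but the log2 fold change was -0.18 ± 0.06 with an adjusted p of 0.0642. Ndufs1, the largest subunit of the peripheral arm, was at 18.1, 17.3, 18.1 and 15.9 FPKM in LysM0 to LysM3 and at 17.6, 20.95, 20.5 and 18.5 FPKM in K2KO0 to K2KO3. It had the highest log2 fold change of the subunits, 0.15 ± 0.07, with overlapping groups and an adjusted p of 0.162. Ndufs4, an accessory subunit whose loss gives a Leigh syndrome-like disease in mice, had the log2 fold change nearest 0. Its level was 19.2, 21.4, 20.4 and 21.2 FPKM in LysM0 to LysM3 and 19.4, 20.3, 21.2 and 21.5 FPKM in K2KO0 to K2KO3, with means of 20.6 FPKM in both groups. The accessory subunits Ndufa12 and Ndufv3 had log2 fold changes of -0.22 and -0.20, with adjusted p of 0.181 and 0.155.

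Of the 7 genes of the ubiquinone-reducing end, 4 were called lower and 3 were not called, with a median of -0.27. Ndufa5, an accessory subunit of the peripheral arm, was at 61.1, 78.7, 79.7 and 78.7 FPKM in LysM0 to LysM3 and at 43.5, 49.4, 55.1 and 63.7 FPKM in K2KO0 to K2KO3. K2KO3 lay above LysM0, so the groups overlapped by that pair. The log2 fold change was -0.50 ± 0.13 (adjusted p = 0.0292). Ndufa7, another accessory subunit, varied little in the controls, at 312, 319, 323 and 317 FPKM in LysM0 to LysM3 and at 219, 226, 240.2 and 274 FPKM in K2KO0 to K2KO3. Its groups were separated by a wide gap, with a log2 fold change of -0.41 ± 0.08 and the smallest adjusted p of the members, 0.0131. Ndufa7 was not called after the correction for GC content and length (-0.10, adjusted p = 0.208).

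Ndufs7, the core subunit with the last cluster before ubiquinone, was at 176, 202, 206 and 209.7 FPKM in LysM0 to LysM3 and at 141, 139, 146 and 179.7 FPKM in K2KO0 to K2KO3. LysM0 was below K2KO3, and the log2 fold change was -0.40 ± 0.10 (adjusted p = 0.0250). Ndufs8, a core subunit that carries clusters on the way to Ndufs7, was at 35.4, 36.1, 36.3 and 36.2 FPKM in LysM0 to LysM3 and at 26.7, 29.3, 28.7 and 35.4 FPKM in K2KO0 to K2KO3. Its log2 fold change of -0.27 ± 0.08 was just past the limit (adjusted p = 0.0480), and K2KO3 was level with the LysM libraries.

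Ndufs3, a core subunit of the same region, was at 36.4, 41.1, 40.5 and 41.7 FPKM in LysM0 to LysM3 and at 33.3, 34.4, 35.6 and 43.0 FPKM in K2KO0 to K2KO3. Here K2KO3 was the highest library of all, and the log2 fold change was -0.13 with an adjusted p of 0.296. Ndufa6, which binds the mitochondrial acyl carrier protein, had a log2 fold change of -0.25 (adjusted p = 0.0553). Across both ends of the peripheral arm, 3 of the 7 core subunits, Ndufv2, Ndufs7 and Ndufs8, were called lower.

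The membrane arm list held 21 tested genes, of which 10 were called lower and 11 were not called, with a median of -0.29 and no value above 0. It includes Ndufa9, which lies where the arms meet. Ndufb7, an accessory subunit on the intermembrane space side, changed most. It was at 274, 322, 294 and 316 FPKM in LysM0 to LysM3 and at 179, 191, 197 and 274 FPKM in K2KO0 to K2KO3. The highest K2KO library lay just under the lowest LysM library, and the log2 fold change was -0.54 ± 0.13 (adjusted p = 0.0239). Ndufb10, which lies on the same side of the membrane, was at 132, 147, 159 and 159 FPKM in LysM0 to LysM3 and at 93.4, 95.5, 114 and 125 FPKM in K2KO0 to K2KO3. Its groups did not overlap (log2 fold change -0.49 ± 0.11, adjusted p = 0.0197).

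Ndufa3, a small membrane-spanning accessory subunit, was at 175, 221, 206 and 192 FPKM in LysM0 to LysM3 and at 123, 145, 146 and 154 FPKM in K2KO0 to K2KO3. All K2KO libraries were below all LysM libraries, with a log2 fold change of -0.48 ± 0.09 (adjusted p = 0.0145), the smallest adjusted p in the membrane arm. Ndufa13, also known as GRIM-19, was at 149, 158, 139 and 162 FPKM in LysM0 to LysM3 and at 107, 109.99, 112 and 141 FPKM in K2KO0 to K2KO3. K2KO3 stood apart from the other K2KO libraries and above LysM2, and the log2 fold change was -0.38 ± 0.10 (adjusted p = 0.0292). The other called genes of this arm were Ndufb3 (-0.44), Ndufb11 (-0.30), Ndufb8 (-0.30), Ndufa11 (-0.29), Ndufb2 (-0.29) and Ndufs5 (-0.27), all small accessory subunits, with adjusted p from 0.0225 for Ndufb3 to 0.0496 for Ndufb2.

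Among the membrane arm genes that were not called, Ndufb4 had the largest difference, -0.50, with an SE of 0.20 and an adjusted p of 0.0985. It was also the subunit of complex I with the lowest level, 4.10 ± 0.57 and 2.96 ± 0.99 FPKM (SD, n = 4 each). Ndufc2 passed the p-value but not the limit on the change (-0.24, adjusted p = 0.0473). Ndufa1, Ndufa8, Ndufb9, Ndufc1, Ndufb5, Ndufa9 and Ndufb6 had log2 fold changes from -0.31 for Ndufb9 to -0.10 for Ndufb6, with adjusted p from 0.0522 for Ndufa1 to 0.358 for Ndufb6. Ndufa10, which resembles a nucleoside kinase, was nearest to 0 in this arm. It was at 27.0, 28.9, 25.9 and 27.4 FPKM in LysM0 to LysM3 and at 24.7, 27.1, 27.1 and 27.2 FPKM in K2KO0 to K2KO3, and its log2 fold change of -0.04 changed sign under upper-quartile scaling.

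**Figure D2:**
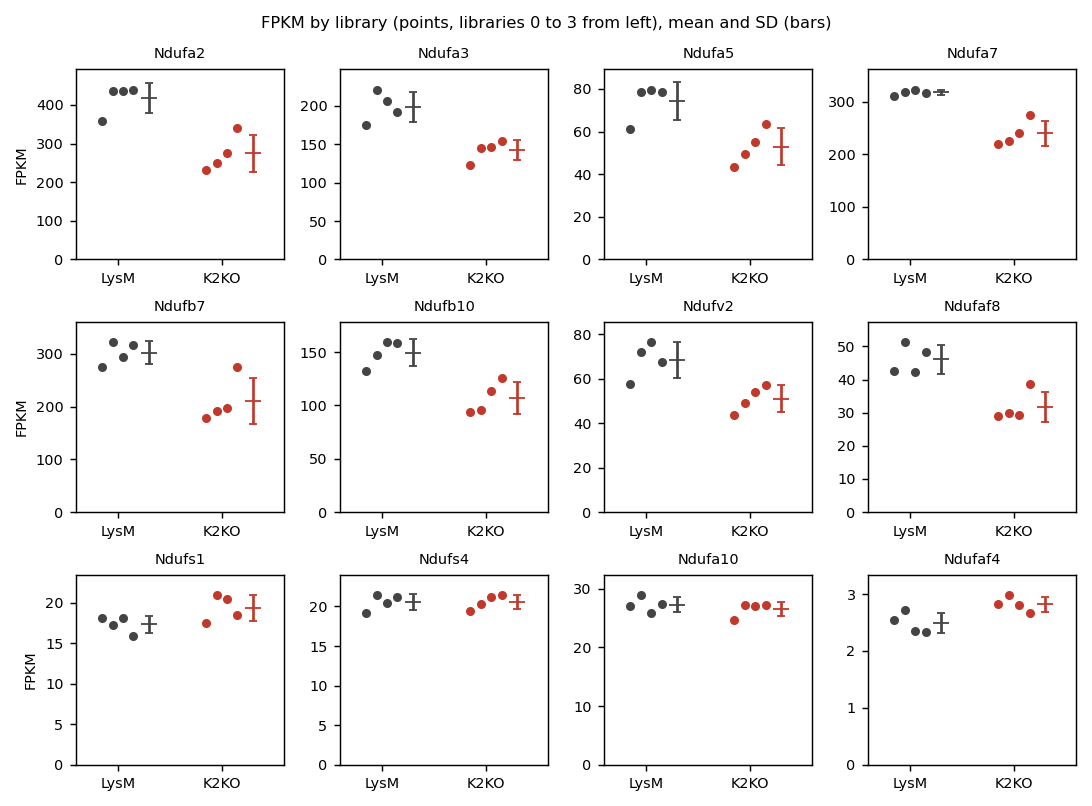
FPKM of 12 complex I genes in each library (points, libraries 0 to 3 from left to right, LysM dark and K2KO red), with the mean and SD of 4 libraries beside them; each panel has its own axis from 0. The panels of Ndufa2, Ndufa3, Ndufa7, Ndufb7, Ndufb10, Ndufv2 and Ndufaf8 show groups that do not overlap, with K2KO3 the highest K2KO library in each, and those of Ndufs1, Ndufs4 and Ndufa10 show overlapping groups.

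The products of a few members are not dedicated to complex I. Ndufab1, the mitochondrial acyl carrier protein, also serves fatty acid and lipoic acid synthesis and iron-sulfur cluster assembly. It was at 5.80, 6.09, 5.79 and 5.0 FPKM in LysM0 to LysM3 and at 4.24, 4.81, 4.54 and 6.07 FPKM in K2KO0 to K2KO3, with overlapping groups (-0.21, adjusted p = 0.196). Ndufa4, once counted as a complex I subunit, is now placed in cytochrome c oxidase. It was at 203, 193, 217 and 186 FPKM in LysM0 to LysM3 and at 147, 182, 199 and 171 FPKM in K2KO0 to K2KO3 (log2 fold change -0.20, adjusted p = 0.163). When GC content alone was corrected for it was called lower, at -0.33 (adjusted p = 0.0329). Its hypoxia-inducible relative Ndufa4l2 was the sole member under the filter, listed at 0 FPKM in LysM0 and at most at 0.500 FPKM in any library.

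The assembly factors were less abundant than the subunits per length. Their means lay between 2.49 FPKM for Ndufaf4 and 46.1 FPKM for Ndufaf8 in LysM, while 27 of the 36 tested subunits other than Ndufa4 were above 46.1 FPKM. Ndufaf8, which acts with Ndufaf5, was the sole assembly factor called. It was at 42.4, 51.2, 42.3 and 48.3 FPKM in LysM0 to LysM3 and at 29.1, 29.8, 29.2 and 38.7 FPKM in K2KO0 to K2KO3. Every K2KO library was lower than every LysM library, and K2KO3 stood apart from the other K2KO libraries (log2 fold change -0.54 ± 0.11, adjusted p = 0.0145).

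The remaining assembly factors lay on both sides of 0. Ndufaf5, which hydroxylates Ndufs7, and Ndufaf3, which acts early on the ubiquinone end, had log2 fold changes of -0.18 (adjusted p = 0.188) and -0.16 (adjusted p = 0.2496). Ndufaf3 was at 17.1, 16.7, 18.6 and 17.6 FPKM in LysM0 to LysM3 and at 14.1, 14.4, 15.1 and 19.3 FPKM in K2KO0 to K2KO3, where K2KO3 was the highest library of all. Ndufaf2, a relative of Ndufa12, was at 13.3, 10.4, 14.3 and 15.5 FPKM in LysM0 to LysM3 and at 12.1, 14.8, 13.5 and 14.2 FPKM in K2KO0 to K2KO3 (log2 fold change 0.04). Ndufaf1, Ndufaf6 and Ndufaf7, the last a methyltransferase, had log2 fold changes of 0.05, 0.09 and 0.04. Ndufaf4, the partner of Ndufaf3, had the highest value of all members, 0.18 ± 0.08, at 2.54, 2.71, 2.36 and 2.33 FPKM in LysM0 to LysM3 and at 2.82, 2.98, 2.81 and 2.67 FPKM in K2KO0 to K2KO3 (adjusted p = 0.154). Once length and GC content were corrected for (the fit given further on) it was at -0.06, and Ndufaf6 was then the highest, at 0.21. The median over the assembly factors changed sign under quantile normalization, to -0.03, and when GC content alone was corrected for, to -0.05. With the median of coding transcripts, an alternative given further on, it was -0.001.

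The K2KO libraries did not move alike. Against the mean of the LysM libraries, the median difference of the 37 subunits on the log2 scale was -0.43 in K2KO0, -0.34 in K2KO1, -0.28 in K2KO2 and -0.07 in K2KO3, and in LysM0 to LysM3 it was -0.10, 0.04, 0.02 and 0.06. K2KO3 therefore lay within the range of the LysM libraries. K2KO3 was the highest K2KO library for 34 of the 37 subunits, K2KO0 was the lowest for 30, and LysM0 was the lowest LysM library for 24. A level below every LysM library was reached by 35 of the 37 subunits in K2KO0, 34 in K2KO1, 29 in K2KO2 and 13 in K2KO3. The share of all tested genes that did so in a single K2KO library is not given here. Over all tested genes the median difference was -0.017, 0.018, 0.045 and 0.009 in K2KO0 to K2KO3. Summed over the same 36 subunits, without Ndufa4, complex I took 0.781%, 0.812%, 0.793% and 0.795% of all FPKM in LysM0 to LysM3 and 0.665%, 0.679%, 0.691% and 0.769% in K2KO0 to K2KO3.

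The same order of libraries was seen in genes that were chosen by transcript length alone. In the 1337 other tested genes of the shortest eighth by transcript length, the median difference was -0.30 in K2KO0, -0.29 in K2KO1, -0.16 in K2KO2 and -0.05 in K2KO3, and in LysM0 to LysM3 it was -0.10, 0.03, 0.02 and 0.05. In the 1363 genes of the longest eighth it was 0.15, 0.20, 0.19 and 0.06 in K2KO0 to K2KO3. The assembly factors were at -0.20, -0.02, 0.10 and 0.07 in K2KO0 to K2KO3.

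**Figure D3:**
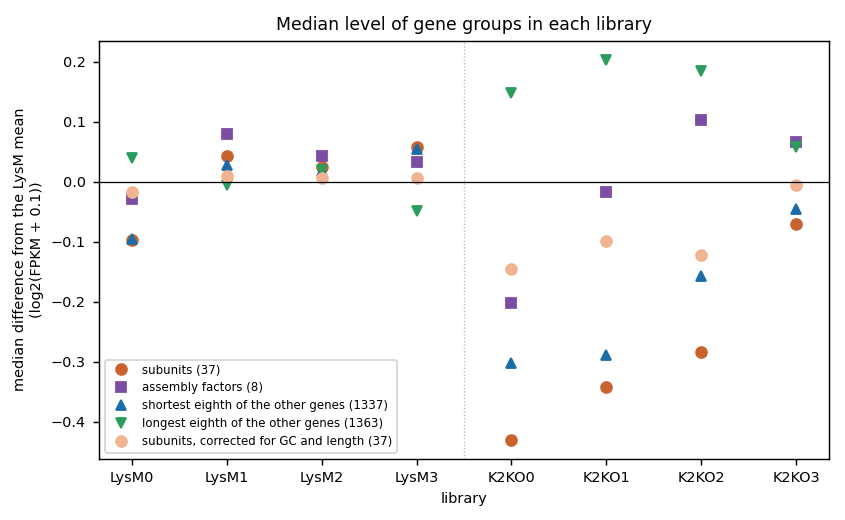
Median difference of each library from the mean of the LysM libraries, on the log2(FPKM + 0.1) scale, for 5 groups of genes named in the legend with their numbers. In K2KO0, K2KO1 and K2KO2 the subunits lie lowest, at -0.43, -0.34 and -0.28, the shortest other genes follow them, and the longest genes lie above 0; in K2KO3 all groups lie between -0.07 and 0.07.

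Subunit genes have short transcripts, and the change of a gene in these libraries went with transcript length and GC content. Length and GC content were taken from 1 principal transcript per gene (GENCODE M21, GRCm38). The median transcript was 875 bases for the tested subunits, 1308 bases for the assembly factors and 2618 bases for all tested genes. Of the 37 subunits, 20 belonged to the shortest eighth of all tested genes, at most 917 bases, and 13 of these 20 were called lower. In that eighth as a whole, 21% of 1359 genes were called lower and 7.06% higher, with a median log2 fold change of -0.21, whereas the 20 subunits had a median of -0.31. In the longest eighth 1.32% were called lower and 17.0% higher. In the next eighth by length (918 bases and more) the 8 subunits had a median of -0.23 beside -0.15 for all its genes, and in the third eighth the 6 subunits had -0.19 beside -0.07.

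GC content showed a like gradient. In the eighth of genes with the highest GC content (57.5% and above) 22.9% were called lower and 1.83% higher, and in the lowest eighth 1.10% lower and 26.2% higher. All 5 subunits in the highest eighth were called lower, namely Ndufa11, Ndufa13, Ndufb7, Ndufs7 and Ndufs8. Ndufb7 has a transcript of 623 bases with 59.7% GC, and Ndufs7 one of 758 bases with 60.7% GC. At the other end, Ndufs1 has 2661 bases with 45.1% GC, Ndufs4 1698 bases with 43.1% GC, and Ndufaf4 3632 bases with 39.5% GC. Exceptions were Ndufb2, with 4371 bases and 43.7% GC, which was called lower against both gradients, and Ndufv2, with 1697 bases and 42.0% GC, and Ndufb3, with 763 bases and 45.0% GC, which were called lower against the gradient of GC content.

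Across the 37 subunits, Spearman's rho between the log2 fold change and transcript length was 0.480, and with GC content it was -0.299. Across the 10899 tested genes with both values, rho was 0.377 and -0.428. With the mean FPKM, rho was -0.435 across the subunits and -0.323 across all these genes. These are descriptions across genes measured in the same 8 libraries, and length, GC content and level are themselves related among genes.

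**Figure D4:**
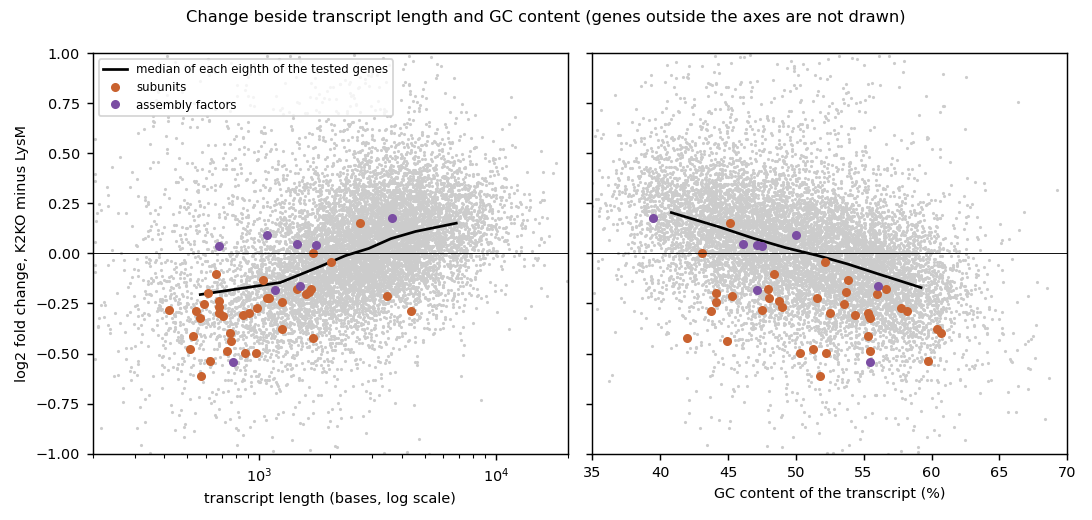
Log2 fold change (K2KO minus LysM) of each tested gene (grey) against the length of its transcript in bases (left, log axis) and its GC content in percent (right), with subunits in orange, assembly factors in purple and the median of each eighth of all genes as a line; genes beyond the axes are not drawn. The line rises from -0.21 to 0.15 with length and falls from 0.20 to -0.17 with GC content, and 31 of the 37 subunits lie below the median of their eighth by length and 36 below that by GC content.

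The libraries were then corrected by a local regression of each one's deviation from the mean library on GC content and transcript length. After this correction 6 of the 37 subunits were called lower and 0 higher, where 3.67% of all genes were called lower and 4.84% higher. The 6 were Ndufa2, Ndufa3, Ndufa5, Ndufb2, Ndufb3 and Ndufv2, and all of them had been called before it. The median over the subunits was -0.09 beside 0.00 over all genes, and 30 of the 37 values were below 0, against 49.6% of all genes. Ndufaf8 was still called among the assembly factors, whose median was 0.02.

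Ndufv2 had the largest corrected log2 fold change, -0.51 ± 0.09 (adjusted p = 0.0210), followed by Ndufb2 at -0.47 ± 0.11 and Ndufa2 at -0.40 ± 0.07. Ndufa5 was at -0.35, Ndufb3 at -0.37, Ndufa3 at -0.26 and Ndufaf8 at -0.28. Other genes that had been called moved close to 0 with the principal transcript, such as Ndufs7 (-0.03), Ndufs8 (0.01), Ndufs6 (-0.01), Ndufb8 (-0.01) and Ndufa11 (0.08). Ndufb7 was at -0.16 (adjusted p = 0.127) and Ndufa7 at -0.10 (adjusted p = 0.208). The 7 core subunits had a corrected median of -0.01, with 1 called.

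The annotated principal transcript of Ndufb2 is 4371 bases long and that of Ndufab1 3479 bases, against a median of 763 bases in the membrane arm, and the correction sets each gene beside genes of its own length and GC content. With the median of each gene's coding transcripts in place of the principal one, Ndufb2 was at -0.35 and 7 subunits were called, the 6 above and Ndufb10. The median over the subunits was then -0.16. Ndufs6 was at -0.18, Ndufs7 at -0.15, Ndufb8 at -0.13, Ndufs8 at -0.08 and Ndufa11 at -0.04. Ndufb7 was at -0.27 and Ndufa7 at -0.21, all without a call. By library, the corrected median of the subunits was -0.15, -0.10, -0.12 and -0.01 in K2KO0 to K2KO3 and between -0.02 and 0.01 in the LysM libraries. When a library was left out in the corrected fit, 0 to 7 subunits were called, while 0.634% to 5.9% of all genes were called lower. The number was 6 without LysM0, 7 without K2KO3, 1 without K2KO1 and 0 in the other fits.

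**Figure D5:**
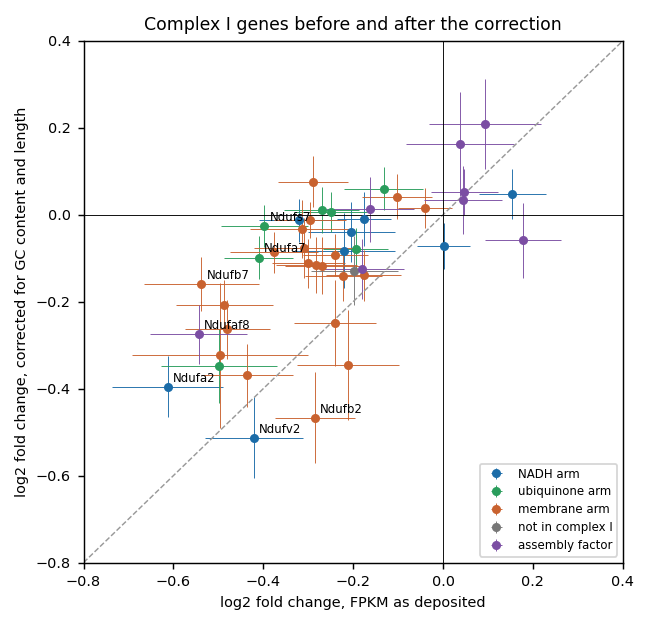
Log2 fold change of the 45 tested complex I genes from FPKM as deposited (horizontal) and after correcting for GC and length (vertical), with standard errors as lines and colours by arm; the dashed line marks equal values. Most subunits lie above the dashed line and nearer to 0. The subunits below it are Ndufv2 (-0.42 and -0.51), Ndufb2 (-0.29 and -0.47), Ndufab1 (-0.21 and -0.35), Ndufc1 (-0.24 and -0.25), Ndufs1 (0.15 and 0.05) and Ndufs4 (0.001 and -0.07).

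Some levels may hold reads of another gene. Exons of 17 members overlap a gene on the opposite strand in the annotation, and although the libraries were made with a stranded kit, whether the quantification used strand is not stated. The overlap takes 30.0% of the exon bases of Ndufa13 (with Tssk6), 39.0% of Ndufb6 (with Smim27), 65.6% of Ndufaf2 (with B230220B15Rik) and 11.5% of Ndufa2 (with Tmco6). It also takes 12.9% of Ndufb11 (with Rbm10) and 12.3% of Ndufb5 (with Mrpl47). On the same strand 3 members overlap another gene, and for Ndufb9 this takes 19.5% (with Gm49356). Near-identical copies elsewhere in the genome, of at least 95% identity over at least 200 bases, exist for 8 subunits (Ndufa12, Ndufab1, Ndufb11, Ndufb3, Ndufb4, Ndufs3, Ndufs5 and Ndufs6), so their levels are uncertain. Of these 4 were called lower. Of the 29 tested subunits without a copy 13 were called lower, with a median of -0.28. Ndufb4 and Ndufab1, the tested subunits with the lowest levels, both have copies.

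Members on the chromosomes of the floxed gene and of Cre were looked at by position. Ndufa13 (chr8:69894180-69902558, minus strand) and Ndufb7 (chr8:83566671-83571626, plus strand) lie 2.42 and 11.2 Mb from Klf2. On the chromosome of Lyz2, Ndufa4l2 lies 10.2 Mb from that gene, Ndufa12 lies 23.1 Mb and Ndufs7 lies 37.0 Mb from it. Values of all these genes are given above, and the part of linked sequence in them was not tested.

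Other genes of complex I biology were taken from fixed lists. Of 12 tested assembly factors without an Ndufaf name, 1 was called lower and 0 higher, with a median of 0.01. The share called lower was 8.33%, beside 8.61% of all tested genes, of which 9.84% were called higher. The called gene was Dmac1, which helps to build the far end of the membrane arm, at 100.6, 109, 115 and 127 FPKM in LysM0 to LysM3 and at 84.4, 77.7, 78.8 and 90.2 FPKM in K2KO0 to K2KO3. Its groups did not overlap (log2 fold change -0.44 ± 0.08, adjusted p = 0.0134), and it was called after the correction as well (-0.29, adjusted p = 0.0372). Lyrm2, a small LYR-motif protein, was called higher after the correction (0.37, adjusted p = 0.0469) and not before it (0.24, adjusted p = 0.146). None of 5 tested proteases and chaperones of complex I turnover was called, and 2 of them had an unadjusted p under 0.05, a share near the 37.8% of all tested genes.

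Among 14 genes that supply iron-sulfur clusters or flavin, 3 were called lower and 1 higher, where 8.61% and 9.84% of all tested genes were. Glrx5, which hands on clusters, fell from 87.3 ± 4.17 to 63.5 ± 8.42 FPKM (SD, n = 4 each, log2 fold change -0.47, adjusted p = 0.0147) and was called after the correction. Iscu, the scaffold on which clusters form, fell from 82.7 ± 4.03 to 63.5 ± 7.52 FPKM (log2 fold change -0.39), and the cluster carrier Nfu1 had -0.26, both without a call after it. Slc25a32, a mitochondrial carrier for folate and flavin, rose from 2.20 ± 0.25 to 3.22 ± 0.56 FPKM (log2 fold change 0.52, adjusted p = 0.0282), also without a call after it and called in 3 of the 8 fits with a library left out.

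Of 6 tested other enzymes that reduce ubiquinone, 1 was called lower, 1 higher and 4 were not called. Among all tested genes 8.61% were called lower and 9.84% higher. Sqor, which oxidises sulfide, was called lower at 37.2, 42.4, 41.7 and 41.3 FPKM in LysM0 to LysM3 and 32.5, 32.0, 33.0 and 32.3 FPKM in K2KO0 to K2KO3. K2KO3 was as low as the other K2KO libraries here (log2 fold change -0.32 ± 0.06, adjusted p = 0.0120, and -0.33 after the correction). Etfdh, which takes electrons from fatty acid oxidation, was called higher, at 8.74 ± 0.38 FPKM in LysM and 10.97 ± 1.10 FPKM in K2KO (log2 fold change 0.32, adjusted p = 0.0255, and 0.26 with adjusted p = 0.0437 after the correction), but in only 2 of the 8 fits with a library left out. None of the 7 tested genes of complex II, succinate dehydrogenase and its assembly factors, was called, with a median of -0.10, and 2 had an unadjusted p under 0.05, against 37.8% of all tested genes.

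Of 3 genes for factors of respiratory supercomplexes, 1 was called lower, where 8.61% of all tested genes were. This was Higd2a (log2 fold change -0.34, adjusted p = 0.0142), which was at -0.10 without a call after the correction (adjusted p = 0.301). Of 11 tested regulators of mitochondrial gene expression, 1 was called higher, a share of 9.09% beside 9.84% of all tested genes. This was Gabpa, an ETS-family factor, which went from 3.51 ± 0.22 to 4.98 ± 0.49 FPKM (log2 fold change 0.49, adjusted p = 0.0120). After the correction Gabpa was at 0.26 (adjusted p = 0.0519). Of 13 tested general mitochondrial genes such as Cs, Vdac1 and Tomm20, 1 was called lower, a share of 7.69% beside 8.61% of all tested genes. This was Phb, a prohibitin of the inner membrane (log2 fold change -0.31, adjusted p = 0.0317, and -0.18 with adjusted p = 0.104 after the correction). It was called in 2 of the 8 fits with a library left out, and the median of the list was -0.04.

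Nuclear genes of the other respiratory complexes and of the mitochondrial ribosome were set beside the subunits. Of 40 tested genes of complexes III, IV and ATP synthase, 18 were called lower and 0 higher, with a median log2 fold change of -0.26, a median transcript of 697 bases, and a median of -0.03 with 4 called lower after the correction. Of 77 tested mitochondrial ribosomal protein genes, 13 were called lower and 1 higher, with a median of -0.17, a median transcript of 1316 bases, and a corrected median of -0.04 with 6 called lower and 1 higher. Of all tested genes 8.61% were called lower and 9.84% higher, and 3.67% and 4.84% after the correction. These gene groups share the same 8 libraries, and differences between their medians were not tested.

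Promoters of the members were read from RefSeq (GRCm38.p6), from 250 bases before to 50 after each start, because KLF2 is a DNA-binding factor and the subunit genes lay lower together. A promoter was found for 40 of the 46 members, 33 of them subunit genes. Motifs were searched on both strands as CCACCC (KLF family), GGGCGG (SP family, which shares its core with some KLF sites), CCGGAAG (ETS), GCGCATG (NRF1), AAGATGG (YY1) and AAGGTCA (ERR). CCACCC was in 18.2% of the subunit promoters, in 28.6% of the 7 assembly factor promoters and in 31.0% of all 27025 promoters. GGGCGG was in 45.5%, 85.7% and 35.6%. NRF1 letters were in 15.2% of subunit promoters and 3.99% of all, YY1 letters in 21.2% and 6.46%, ETS letters in 12.1% and 9.08%, and ERR letters in 9.09% and 4.66%. Among the subunits called lower, 3 of 16 promoters held CCACCC, and among the others 3 of 17 did. A match is a description of letters and not a binding site, and variants of these letters were not searched.

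The promoters printed are those of Ndufb7 (chr8:83566508-83566807, plus strand) and Ndufa5 (chr6:24527477-24527776, minus strand), the called subunits with the largest decreases after Ndufa2, of Ndufaf4 (chr4:24897833-24898132, plus strand), the member with the highest log2 fold change before the correction, and of Ndufs4 (chr13:114388045-114388344, minus strand), the member nearest 0. Each is written 5′ to 3′ on the gene's strand, and capitals mark matches to the motifs above on either strand.
Ndufb7: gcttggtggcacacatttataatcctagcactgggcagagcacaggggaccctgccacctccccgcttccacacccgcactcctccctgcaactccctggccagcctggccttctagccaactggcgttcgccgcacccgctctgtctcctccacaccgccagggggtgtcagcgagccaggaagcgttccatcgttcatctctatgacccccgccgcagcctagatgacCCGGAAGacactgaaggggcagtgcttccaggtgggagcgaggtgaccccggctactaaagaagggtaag
Ndufa5: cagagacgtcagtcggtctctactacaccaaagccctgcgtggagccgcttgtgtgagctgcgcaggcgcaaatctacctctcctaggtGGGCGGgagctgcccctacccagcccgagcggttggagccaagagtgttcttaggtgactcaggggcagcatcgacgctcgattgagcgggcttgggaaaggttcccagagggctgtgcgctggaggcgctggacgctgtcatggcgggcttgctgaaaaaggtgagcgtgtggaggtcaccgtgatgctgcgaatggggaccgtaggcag
Ndufaf4: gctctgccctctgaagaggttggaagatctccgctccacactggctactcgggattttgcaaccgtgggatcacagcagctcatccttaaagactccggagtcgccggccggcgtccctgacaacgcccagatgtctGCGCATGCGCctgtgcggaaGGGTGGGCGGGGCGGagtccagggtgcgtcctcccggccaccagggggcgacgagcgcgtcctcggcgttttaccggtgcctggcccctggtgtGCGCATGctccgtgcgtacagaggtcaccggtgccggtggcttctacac
Ndufs4: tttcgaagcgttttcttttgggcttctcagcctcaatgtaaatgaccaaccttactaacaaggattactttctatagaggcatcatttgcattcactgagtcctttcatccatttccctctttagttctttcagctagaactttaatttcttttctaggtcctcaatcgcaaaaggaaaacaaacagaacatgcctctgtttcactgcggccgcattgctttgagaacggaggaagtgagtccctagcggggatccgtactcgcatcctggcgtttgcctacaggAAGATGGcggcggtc

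Ndufb7 and Ndufa5, which fell, held an ETS match and an SP match and no CCACCC on either strand. Only these exact letters were searched for the KLF family. Shorter or variant forms were not, and CACCC does occur in the Ndufb7 promoter. The Ndufaf4 promoter held KLF, SP and NRF1 letters close together, and that of Ndufs4 held a YY1 match just after the start.

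Most markers of macrophages were abundant in all libraries, and those of most other cells were near 0. The summed level of 10 macrophage markers was 4188, 4289, 4061 and 4205 FPKM in LysM0 to LysM3 and 3864, 3796, 3959 and 3960 FPKM in K2KO0 to K2KO3. The most abundant, Cd68, was at 1834 FPKM in LysM and 1779 FPKM in K2KO. Of these 10 markers, Lyz2 and Cx3cr1 were called lower and Mertk higher, where 8.61% of all tested genes were called lower and 9.84% higher. Lyz2, the locus that carries Cre, was at 18.6 ± 2.88 and 13.2 ± 1.73 FPKM (log2 fold change -0.49, adjusted p = 0.0260). Both groups are Cre/Cre at this locus, so its level is that of an altered gene. Cx3cr1 was at 4.71 ± 0.99 and 2.26 ± 0.91 FPKM (-1.09, adjusted p = 0.0239), and Mertk at 14.2 ± 1.68 and 18.3 ± 1.5 FPKM (0.36, adjusted p = 0.0285). After the correction Cx3cr1 was called (adjusted p = 0.0372), whereas Lyz2 (adjusted p = 0.0604) and Mertk (adjusted p = 0.0890) were not. Of the 8 fits with a library left out, Lyz2 was called in 4, Cx3cr1 in 3 and Mertk in 2.

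Neutrophil markers summed to 186, 267, 231 and 315 FPKM in LysM0 to LysM3 and to 175, 292, 227 and 306 FPKM in K2KO0 to K2KO3, with S100a9 the most abundant. Of 7 tested, 1 was called lower, where 8.61% of all tested genes were. This was Camp (13.6 ± 2.21 and 6.40 ± 2.53 FPKM, log2 fold change -1.14, adjusted p = 0.0178). Markers of T cells, dendritic cells, fibroblasts, erythroid cells and mast cells summed to at most 3.23 FPKM in any library and those of B cells to at most 5.29 FPKM. The part of these markers in the complex I results was not tested.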

How the data were processed

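RNA of 8 BMDM samples was sequenced. The paper's methods give 4 mice per group, so the libraries of a group were taken as biological replicates. The paper's methods name TopHat2, the submitters' processing notes name STAR, Cufflinks, Cuffdiff and mm10, and no versions are given. The deposited FPKM were computed by the authors per gene and library, without pooling. The isolation kit differs between labels and paper, and the filter on listed genes is not stated in the sources used here.

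Here, log2(FPKM + 0.1) was fitted for all genes with a mean of at least 1 FPKM with limma 3.58.1 (lmFit, eBayes with trend) in R 4.3.3, without covariates, with Benjamini-Hochberg adjustment over all these genes. Names, positions and 1 principal transcript per gene came from GENCODE M21 (23645 of 23761 genes matched). The correction was a loess fit (span 0.3) on GC content and log2 length. Copies were searched with blastn 2.17.0.

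Genes named were the core subunits, the called members with the largest changes, the most significant member of each role, those nearest 0, those near Klf2 or near Rpl29 (a chromosome 9 gene that stood out in the earlier results), and up to 3 called genes of each other list. The remaining members were added, except 1 core subunit that is counted but not reported by itself here. Members, lists and rule were chosen with earlier results of these data known. Alternatives were other pseudocounts, filters, scalings and tests, a replicate block, corrections, and each library left out. The scripts were tested on simulated data.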

Additional observations from a re-analysis of the deposited data

Results flagged for a closer look

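In 7 of 72 groups of 4 libraries examined (36 named genes in each genotype), 1 library stood far from the other 3 by Dixon's ratio, where chance gives about 3.6. In K2KO3, Ndufa13 was at 141.4 FPKM (others 107.3 to 112.1), Ndufaf8 at 38.66 FPKM (others 29.12 to 29.78) and Ndufa4l2 at 0.3994 FPKM (others 0.2112 to 0.2378). In LysM0, Ndufa2 was at 358.8 FPKM (others 434.9 to 439.3) and Ndufa5 at 61.12 FPKM (others 78.67 to 79.66). Ndufa10 was at 24.66 FPKM in K2KO0 (others 27.1 to 27.25), and Ndufv1 at 45.5 FPKM in LysM2 (others 42.34 to 42.73). Relative depth was 1 in LysM0, 1.08 in LysM2, 1.40 in K2KO0 and 0.979 in K2KO3, and its part in these values was not tested. With each of the 8 libraries left out in turn, Ndufaf8 was called lower in 8 fits, Ndufa2 in 7, Ndufa13 in 3 and Ndufa5 in 2.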

How the results depend on the processing

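The number of subunits called lower was 17, and 0 were called higher under any alternative. It was 16 and 17 with pseudocounts of 1 and 0.01 (8.04% and 8.7% of all genes were then called lower). With a filter at 0.1 FPKM it was 14 (5.56%), and without an intensity trend 14 (7.26%). With no limit on the change it was 18 (9.92%), and without genes that have a copy 13 of 29. It was 1 with no filter on low values (0.859%), 8 with quantile normalization (6.4%) and 11 with upper-quartile scaling (6.85%). Ordinary least squares gave 2 (2.9%), and an absolute log2 fold change over 1 gave 0 (0.412%). With the correction for GC content and length it was 6 (3.67% of all genes), for length alone 7 (5.81%), for GC content alone 13 (5.47%), and with the median of coding transcripts, an alternative added after seeing the data, 7 (4.18%). The median over the subunits was then -0.093, -0.109, -0.239 and -0.164, and with quantile normalization it was -0.157. Leaving out 1 library gave 2 to 25 calls (2.24% to 12.6%), and 0 to 7 with the correction (0.634% to 5.9%). Assembly factors called numbered 1, or 0 with no filter and at a change over 1, 1 to 2 with a library left out, and 0 to 1 with the correction as well. Their median kept within 1 SD of the libraries' medians. The causes were not tested, except that leaving a library out leaves fewer samples.

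Several differences changed sign, among them that of Ndufs8, called lower without the correction, and that of Ndufs7, also called lower without it, in 1 corrected fit with a library left out. With the correction, log2 fold changes were 0.054 for Klf2, 0.015 for Ndufa10, 0.013 for Ndufaf3, 0.060 for Ndufs3, -0.072 for Ndufs4 and 0.011 for Ndufs8. With GC content alone they were 0.016 for Klf2, -0.022 for Ndufaf2 and -0.156 for Ndufs4. With length alone they were 0.003 for Ndufa10, 0.003 for Ndufa4 (-0.333 with GC content alone, called lower) and 0.035 for Ndufs3. With the median of coding transcripts they were 0.012 for Klf2, 0.092 for Ndufa10 and -0.054 for Ndufs4. Upper-quartile scaling gave 0.004 for Ndufa10. With a library left out, Ndufaf2 ran from -0.077 to 0.114 and Ndufs4 from -0.031 to 0.028. In the corrected fit the ranges were -0.072 to 0.146 for Klf2, -0.011 to 0.036 for Ndufa10, -0.052 to 0.051 for Ndufaf3, -0.050 to 0.007 for Ndufs7, -0.011 to 0.035 for Ndufs8 and -0.045 to 0.026 for Ndufv1. None of these was called in the corrected fit.

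The groups share column numbers. Deviations of libraries with the same number correlated at -0.070, 0.020, 0.073 and -0.057, so no shared deviation by number was seen. Whether the mice were paired is not stated, and these correlations cannot decide it. With the number as a replicate block, Klf2 was at -0.183 (adjusted p = 0.14 by limma, and 0.46 without the block). The block gave 17 called subunits (9.39% of all genes were called lower), and 15 of the 18 members called without it were shared. With the block and the correction 5 were called (2.91%), the median was -0.093, and Klf2 was at 0.054, Ndufa10 at 0.015, Ndufaf3 at 0.013, Ndufs3 at 0.060, Ndufs4 at -0.072 and Ndufs8 at 0.011. Without read counts, neither counting error nor limits of detection could be given.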
